A study of Mus musculus with 9 samples.

Results

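The C/EBP transcription factors were followed through the differentiation of 3T3-L1, an established mouse cell line of fibroblast character that becomes fat cells under a hormone mixture. Members were taken by gene symbol, which gave 5 genes, Cebpa (gene ID 12606), Cebpb (12608), Cebpd (12609), Cebpg (12611) and Cebpz (12607), of 19094 genes with a value in any sample. RNA was sequenced from preadipocytes at day 0 (n = 3), from cells at day 4 (n = 3) and from cells at day 8 (n = 3), 9 samples in all. All samples are labelled with the same line, and no genotype or transgene is named. Near-confluent cells received the glucocorticoid dexamethasone, IBMX, which keeps cyclic AMP high, and insulin at day 0, were moved to medium with insulin alone after 2 days, and stayed in that medium until day 8. Cells of a stage were pooled before RNA extraction, and nothing states that the 3 samples of a day came from separate cultures. The p-values below therefore measure the spread between these samples, which may be technical. Each sample held between 18216114 and 20452144 expected counts (median 20182731). An expected count is the number of fragments that the RSEM program assigns to a gene, and FPKM is that number scaled to transcript length and to the fragments sequenced in the sample. Day 4 against day 0 is called the early phase, day 8 against day 4 the late phase, and day 8 against day 0 the whole process.

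C/EBP proteins bind DNA as pairs through a basic region and a leucine zipper, the bZIP domain, and recognise variants of the palindrome TTGCGCAA. In the textbook order of fat cell formation, hormones first raise C/EBPβ and C/EBPδ, which then switch on C/EBPα and the nuclear receptor PPARγ, and the latter pair keep each other and the genes of the mature fat cell active. C/EBPγ has a bZIP domain but no activation domain of its own and works mainly as a partner in mixed pairs. Cebpz shares the family name because its human product was isolated as a CCAAT box binding protein. It has no bZIP domain, and its yeast counterpart helps to assemble the large ribosomal subunit. The family name thus covers inducible activators (Cebpb, Cebpd), a lasting activator (Cebpa), a pairing partner (Cebpg) and an unrelated nucleolar protein (Cebpz).

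Promoter sequence was matched for 3 of the 5 members, Cebpa, Cebpb and Cebpg, while Cebpd and Cebpz had no entry in the promoter table. The 250 bases before the transcription start were read 5′ to 3′ on the gene's strand from RefSeq on build GRCm38.p6. They are shown so that the letters near the start can be read beside the motifs of C/EBP proteins, of cyclic AMP signalling, which IBMX raises, and of CCAAT-binding proteins. The windows lie at chr7:35119043-35119292 on the plus strand for Cebpa, chr2:167688665-167688914 on the plus strand for Cebpb and chr7:35056567-35056816 on the minus strand for Cebpg. Capitals mark the TTGCG core of the C/EBP palindrome, the TGACG core of the cyclic AMP response element TGACGTCA, and the CCAAT box, on either strand.
Cebpa: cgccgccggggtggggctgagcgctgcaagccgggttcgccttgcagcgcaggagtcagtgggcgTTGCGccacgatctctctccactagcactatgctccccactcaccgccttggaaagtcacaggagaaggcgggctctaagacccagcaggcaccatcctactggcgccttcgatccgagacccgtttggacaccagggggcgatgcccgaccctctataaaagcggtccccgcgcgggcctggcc
Cebpb: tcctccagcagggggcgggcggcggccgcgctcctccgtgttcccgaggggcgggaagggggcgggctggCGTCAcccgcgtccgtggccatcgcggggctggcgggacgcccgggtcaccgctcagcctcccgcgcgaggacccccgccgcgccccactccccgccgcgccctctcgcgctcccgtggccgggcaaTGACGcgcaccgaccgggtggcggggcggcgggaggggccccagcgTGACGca
Cebpg: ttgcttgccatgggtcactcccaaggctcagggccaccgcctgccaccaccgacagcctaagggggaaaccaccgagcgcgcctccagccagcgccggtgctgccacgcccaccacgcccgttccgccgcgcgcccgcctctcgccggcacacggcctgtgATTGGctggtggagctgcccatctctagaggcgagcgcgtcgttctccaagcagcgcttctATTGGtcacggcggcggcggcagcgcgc
The Cebpa window held 1 TTGCG core, 185 to 181 bases before the start. The Cebpb window held 3 TGACG cores, of which 1 was on the reverse strand (180 to 176 bases before the start) and the others lay 53 to 49 and 7 to 3 bases before it. The Cebpg window held 2 CCAAT boxes on the reverse strand, at 89 to 85 and 28 to 24 bases. No window held the whole TTGCGCAA or TGACGTCA, each of which contains the shorter core of its kind. Over 32851 promoter windows of 250 bases, 14.52% held TTGCG, 0.16% TTGCGCAA, 17.77% TGACG, 1.55% TGACGTCA and 33.85% CCAAT. The GC content was 66.4% for Cebpa, 81.6% for Cebpb and 70.8% for Cebpg, against a median of 52.4% over all windows. A match describes the letters only and is not a bound site.

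The labelled cell type was checked against marker genes. Day 0 samples, although labelled adipocytes like the others, had a summed level of 6 adipocyte markers of 9.82 to 13.1 FPKM. The same sum was 4625, 5651 and 6781 FPKM in the day 4 samples and 6945, 7439 and 7446 FPKM at day 8, and Fabp4, a fatty acid carrier, was the most abundant of them on each day. The fibroblast markers (7 genes) summed to 2898 ± 65.4 FPKM (SD, n = 3) on day 0, 1834 ± 82.6 on day 4 and 3087 ± 26.6 on day 8, led by the collagen gene Col1a1. At day 8 against day 0, 3 of these 7 genes had risen (Col1a1, Pdgfra, Pdgfrb) and 3 had fallen, Ly6a by 1.99, Cd34 by 1.24 and the preadipocyte gene Dlk1 by 0.88 on the log2 scale (adjusted p = 4.9e-15, 0.00273 and 9.6e-10, edgeR). By the same test 34.8% of all tested genes had risen and 36.2% had fallen. The RNA extraction label names dorsal root ganglia, unlike every other label. The neuronal markers Rbfox3 and Scn10a and the Schwann cell marker Sox10 had at most 3 counts in each of the 9 samples. Summed neuron markers (7 genes) reached means of 0.733, 1.26 and 1.55 FPKM on the 3 days, with Snap25 the most abundant at day 4 and 8. Snap25, the 1 neuron marker high enough to be tested, rose in the early phase, from a mean of 0.0267 to 1.12 FPKM (adjusted p = 3.3e-08, edgeR), with at most 2.96 counts in a day 0 sample and at least 46.6 in a day 4 sample. Prph and Tubb3, too low to be tested, went the other way, from means of 0.367 to 0.0467 FPKM and of 0.307 to 0.06 FPKM. Summed Schwann cell markers (4 genes) reached means of 3.6, 7.27 and 5.06 FPKM, mostly from S100b, which fat cells also express and which rose by 1.78 early on the log2 scale (adjusted p = 1.6e-09, edgeR). The part of these cell types in the results was not tested. Macrophage markers (6 genes) summed to between 1.95 and 4.04 FPKM in a sample, with Adgre1 and Itgam at no more than 3 counts in every sample, and 3 endothelial markers to between 0.16 and 0.33 FPKM. The macrophage markers Lyz2, Cd68 and Csf1r had at least 6.58, 24 and 12 counts in each sample, and Lyz2 was at 1.8, 0.4 and 0.93 FPKM on the 3 days. Of the endothelial markers, Pecam1 went from 0.13 through 0.133 to 0.257 FPKM and Cdh5 from 0.147 through 0.04 to 0.0167. In RNA from whole cultures, fewer cells of a type and less RNA per cell cannot be told apart.

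Cebpa rose 15.54-fold in the early phase and a further 1.46-fold in the late phase. Cebpd rose 4.58-fold in the early phase and fell 5.43-fold in the late phase, ending below its day 0 level. Cebpb rose in both phases by less than 2-fold, Cebpg rose 1.87-fold early and then stayed near that level, and Cebpz was slightly lower after day 0. All 5 members passed the filter on low counts. Changed here means an adjusted p under 0.05 in edgeR's quasi-likelihood test, and called means that the change was also more than 2-fold. In the early phase 2 of the 5 members, Cebpa and Cebpd, were called higher, against 9.77% of 13154 tested genes, and 0 were called lower, against 7.98%. In the late phase 0 were called higher (4.24% of tested genes) and Cebpd was the 1 called lower (2.81%). Over the whole process Cebpa was the 1 called higher (10.3%) and 0 were called lower (7.70%). In either direction, called genes made up 17.8% of those tested early, 7.05% late and 18.0% over the whole process. Without the 2-fold requirement 4 members rose and 1 fell in the early phase, against 35.5% and 33.7% of all tested genes. In the late phase 2 rose and 1 fell (22.5% and 22.7%), and over the whole process 3 rose and 2 fell (34.8% and 36.2%). In either direction this looser rule took 69.2%, 45.3% and 71.0% of all tested genes, so that passing it was common.

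**Figure D1:**
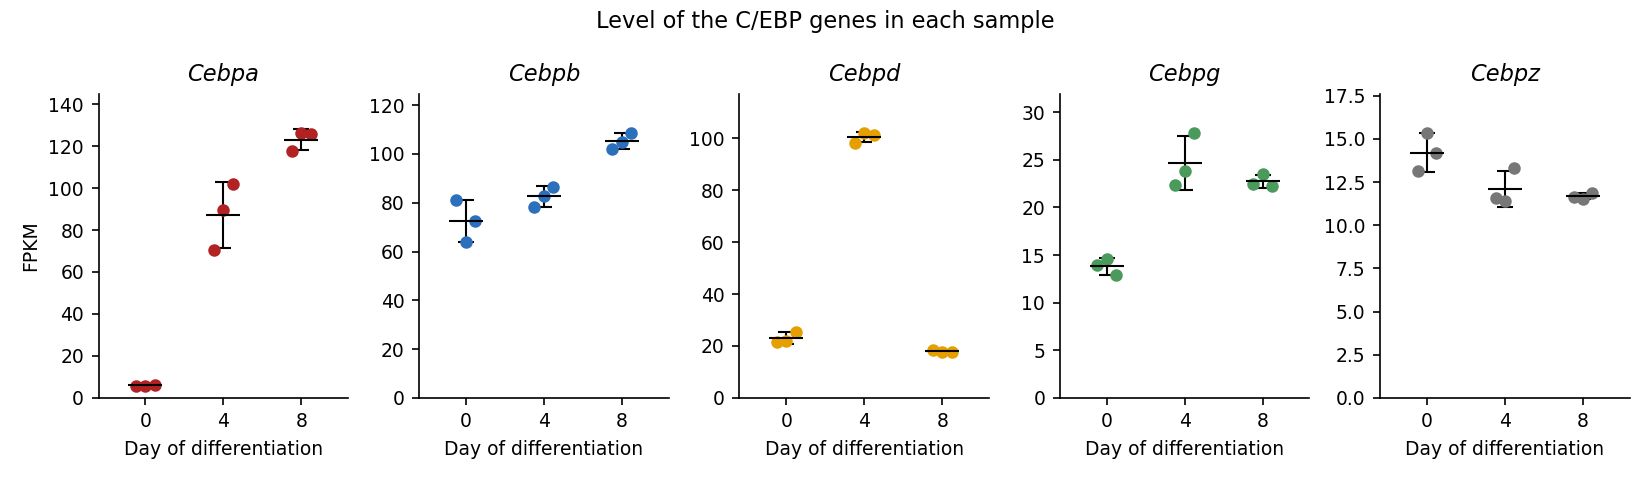
FPKM (y axis, from 0, a separate scale per gene) of each C/EBP gene in each sample against the day of differentiation (x axis). Points are the 3 samples of a day, the horizontal line is their mean and the bars are the SD. Cebpa and Cebpb were highest at day 8, Cebpd peaked at day 4 near 101 FPKM, Cebpg stayed between 22.2 and 27.8 FPKM after day 0, and Cebpz stayed between 11.4 and 15.3 FPKM throughout.

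Cebpb encodes the activator that hormones and cyclic AMP induce at the start of differentiation. It was at 81.27, 63.88 and 72.69 FPKM at day 0, at 78.37, 82.8 and 86.66 FPKM at day 4, and at 101.98, 105.12 and 108.53 FPKM at day 8. The day 8 samples were above all the others, while on the FPKM scale day 0 replicate 1 lay inside the day 4 range. After scaling to CPM, counts relative to the sample's total, with TMM factors the day 0 samples (91.6 to 118) were all below the day 4 samples (119 to 130), a separation that 72.3% of all tested genes showed in one direction or the other. Day 8 was wholly apart from day 4 for 54.5% of all tested genes and from day 0 for 75.5%. The early log2 fold change was 0.25 ± 0.07 (SE, adjusted p = 0.00561, edgeR), or 1.19-fold, and it was 0.16 (adjusted p = 0.0319) without day 0 replicate 2, the lowest sample. The late log2 fold change was 0.39 ± 0.07 (adjusted p = 2.8e-04), or 1.31-fold, and that of the whole process 0.65 ± 0.07 (adjusted p = 5.9e-07), or 1.56-fold. Late and early changes of Cebpb differed by 0.14 on the log2 scale (95% interval -0.12 to 0.41, adjusted p = 0.341), and by 0.05 to 0.23 when single samples were left out. Already at day 0 its mean FPKM of 72.6 was above that of 94.8% of all genes. The hours after induction, when Cebpb is known to peak, were not sampled. With 18.14% of its 50-base stretches, the Cebpb transcript matches the opposite strand of Tmem189, its neighbour on the chromosome. The strand setting of the counting is not given in the sources used here, so reads of the shared part cannot be assigned with certainty. Tmem189 itself rose by 0.60 (adjusted p = 2.7e-07) and 0.19 (adjusted p = 0.0169) on the log2 scale in the 2 phases. The expected counts of Cebpb were whole numbers to within 0.01 in 9 of 9 samples.

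Cebpd encodes the activator that glucocorticoids induce alongside C/EBPβ. It stood at 21.4, 22.01 and 25.55 FPKM at day 0, rose to 98.36, 101.96 and 101.35 FPKM at day 4, and was at 18.58, 17.53 and 17.73 FPKM at day 8. The 3 days did not overlap, and the day 4 samples had a mean of 101 ± 1.93 FPKM (SD, n = 3). On log2 CPM, groups were also separate for 72.3% of all tested genes early, 54.5% late and 75.5% over the whole process. The early log2 fold change was 2.19 ± 0.06 (adjusted p = 2.3e-14) and the late one -2.44 ± 0.06 (adjusted p = 6.0e-14). Ranked by log2 fold change among 13154 tested genes, Cebpd was 493rd from the highest in the early phase and 58th from the lowest in the late phase. Late minus early, the change was -4.64 ± 0.1 on the log2 scale (adjusted p = 1.4e-15), a test that 26.2% of all genes passed upwards, 30.4% downwards and 56.6% in either direction. Day 8 fell below day 0 by 0.25 ± 0.06 (adjusted p = 0.00265), or 1.19-fold, and by 0.16 (adjusted p = 0.0222) without day 0 replicate 3, the highest of that day. An overlap on the opposite strand also exists for Cebpd, where 13.74% of its 50-base stretches match Spidr, a gene of DNA repair. Spidr, at 9.1, 12.6 and 9.32 FPKM on the 3 days, rose by 0.54 early (adjusted p = 6.7e-07) and fell by 0.39 late (adjusted p = 5.6e-05). The expected counts were whole to within 0.01 in 0 of 9 samples for Cebpd and likewise in 0 of 9 for Spidr. Reads of the shared part therefore cannot be assigned with certainty here either.

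Cebpa encodes the activator of the mature fat cell. It was at 5.54, 5.86 and 6.26 FPKM at day 0, at 70.51, 89.32 and 101.87 FPKM at day 4, and at 117.63, 126.17 and 125.67 FPKM at day 8. The days did not overlap. On log2 CPM the same held for 72.3%, 54.5% and 75.5% of all tested genes in the early phase, the late phase and the whole process. Day 4 had the widest spread of Cebpa (SD 15.8 FPKM, against 0.361 at day 0 and 4.79 at day 8). Within day 4 the order of the 3 samples was the same for Cebpa, Cebpb, Cebpg and the summed adipocyte markers, and whether the makeup of the cultures set this spread was not tested. The early log2 fold change was 3.96 ± 0.11 (95% interval 3.72 to 4.20, adjusted p = 4.2e-14) and the late one 0.54 ± 0.09 (0.35 to 0.74, adjusted p = 1.3e-04). Over the whole process Cebpa rose by 4.50 ± 0.11 (adjusted p = 1.1e-14), or 22.65-fold, and was 216th from the highest of 13154 genes. Late minus early, it was -3.41 ± 0.17 (log2, adjusted p = 5.0e-11). In level, 57.2% of all genes had a lower mean FPKM than Cebpa at day 0, and 96.9% did at day 8. Of its 50-base stretches none matches another gene on the same strand and 0.11% match an antisense transcript, and its expected counts were whole in 9 of 9 samples.

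Cebpg encodes the bZIP partner without an activation domain. Its levels were 13.94, 14.63 and 12.87 FPKM at day 0, 22.37, 23.81 and 27.8 FPKM at day 4, and 22.49, 23.51 and 22.21 FPKM at day 8. The day 0 samples were below all others, and the ranges of day 4 and day 8 overlapped. On log2 CPM, 72.3% of all tested genes had day 0 wholly apart from day 4 and 75.5% from day 8. The early rise was 0.90 ± 0.07 on the log2 scale (adjusted p = 6.9e-09), and the rise over the whole process was 0.83 ± 0.07 (adjusted p = 1.9e-08), or 1.78-fold. The late log2 fold change was -0.07 with a 95% interval of -0.21 to 0.07 (adjusted p = 0.414), and it was 0.02 without day 4 replicate 3, the highest sample. The difference between late and early changes, -0.97 ± 0.12 (adjusted p = 2.6e-06), did pass the test.

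Cebpz, the family's nucleolar namesake, was at 13.12, 15.33 and 14.18 FPKM at day 0, at 11.55, 11.41 and 13.33 FPKM at day 4, and at 11.63, 11.53 and 11.89 FPKM at day 8. Day 4 replicate 3 reached into the day 0 range, whereas day 8 lay wholly below day 0, as 75.5% of all tested genes lay wholly above or below. Cebpz fell by 0.16 ± 0.07 in the early phase (adjusted p = 0.0375) and by 0.17 ± 0.07 over the whole process (adjusted p = 0.0326), both close to the threshold. The early change no longer passed without day 0 replicate 2 (-0.11, adjusted p = 0.166), day 0 replicate 3 (-0.16, 0.0795), day 4 replicate 1 (-0.13, 0.122), day 4 replicate 2 (-0.14, 0.112) or day 8 replicate 2 (-0.16, 0.0511). The change over the whole process no longer passed without day 0 replicate 2 (-0.12, 0.15), day 0 replicate 3 (-0.17, 0.0709), day 4 replicate 2 (-0.15, 0.0526), day 8 replicate 1 (-0.16, 0.0903), day 8 replicate 2 (-0.16, 0.0931) or day 8 replicate 3 (-0.17, 0.0614). In the late phase the log2 fold change was 0.00 to 2 decimals (95% interval -0.15 to 0.14, adjusted p = 0.965). Late minus early was 0.16 (-0.09 to 0.41, adjusted p = 0.256), and it passed without day 4 replicate 3 (0.30, adjusted p = 0.0382). On the same strand 1.66% of the 50-base stretches of Cebpz match AC118632.1, and 0.43% of those of Cebpg match Gm44836. Expected counts were whole to within 0.01 in 0 of 9 samples for Cebpz and in 1 of 9 for Cebpg. Cebpzos, an antisense gene that overlaps Cebpz and matches 0.81% of its stretches, rose by 0.35 early (adjusted p = 0.00885).

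**Figure D2:**
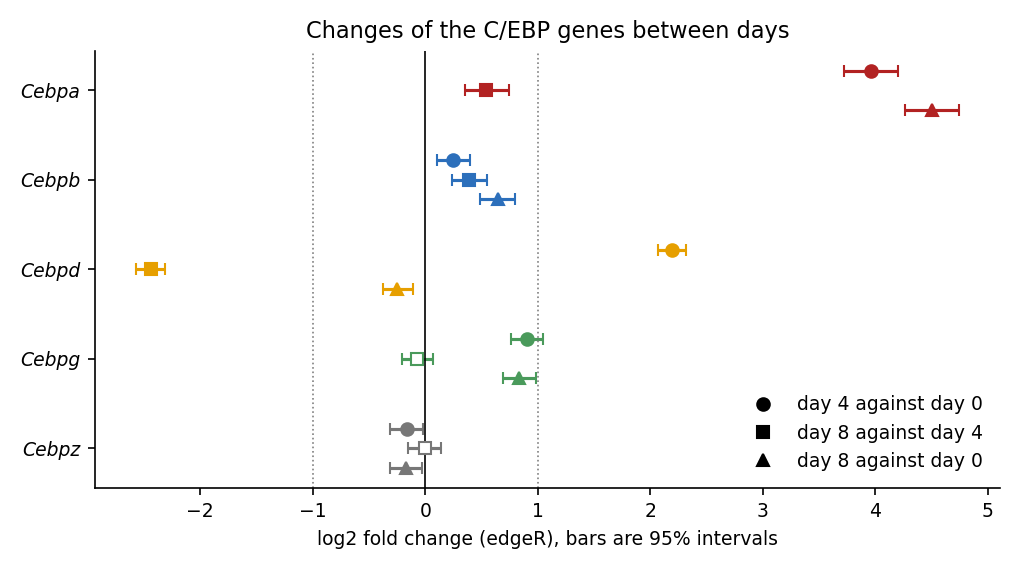
Log2 fold change (x axis) of each C/EBP gene (y axis) in the early phase (circles), the late phase (squares) and the whole process (triangles), from edgeR with bars for the 95% interval. Open symbols did not pass an adjusted p of 0.05 and dotted lines mark 2-fold, beyond which lie Cebpa and Cebpd early, Cebpd late and Cebpa over the whole process.

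Levels per transcript length allow the members to be set in order. At day 0 the mean FPKM ran from Cebpb (72.6) and Cebpd (23) to Cebpz (14.2), Cebpg (13.8) and Cebpa (5.89), and of the neighbours in that order only Cebpz and Cebpg had overlapping samples. At day 4 the order was Cebpd (101), Cebpa (87.2), Cebpb (82.6), Cebpg (24.7) and Cebpz (12.1). The samples of Cebpa overlapped with those of both Cebpd and Cebpb and so could not be ranked against either, while Cebpd lay wholly above Cebpb. At day 8 it was Cebpa (123), Cebpb (105), Cebpg (22.7), Cebpd (17.9) and Cebpz (11.7), with no overlap between neighbours. Cebpa thus went from the last place of the family to the first, and Cebpd from the second to the fourth.

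The makeup of the 4 bZIP members changed with the day. Together they reached 115 ± 8.09 FPKM (SD, n = 3) on day 0, 295 ± 24.2 on day 4 and 269 ± 7.3 on day 8. Cebpb made up 62.8% ± 3.34 of the sum at day 0, 28% ± 0.921 at day 4 and 39.1% ± 0.495 at day 8. Cebpa made up 5.13% ± 0.519, 29.4% ± 3 and 45.8% ± 0.606. The share of Cebpd went from 20% ± 2.21 through 34.2% ± 2.29 to 6.68% ± 0.39. Cebpg took 12% ± 1.5, 8.35% ± 0.381 and 8.45% ± 0.305. In TMM-scaled CPM, which is not per length, Cebpg took 27.2%, 16.7% and 17.1%, and with Ddit3 counted in the sum the FPKM share of Cebpb at day 0 was 30.8%. The Cebpb share was lower in CPM on each day. With Ddit3 the day 0 shares of Cebpa, Cebpd and Cebpg were lower too, and the closing section gives these values. In the exact two-sided permutation test every difference in share between days gave p = 0.1 except that of Cebpg in the late phase. This is the smallest value that 3 against 3 samples can give, so that no share could reach 0.05. The late difference of Cebpg had an exact permutation p = 0.9, and the late difference of the summed level p = 0.3. Cebpa reached 0.082 ± 0.0123 of the FPKM of Cebpb at day 0, 1.05 ± 0.14 at day 4 and 1.17 ± 0.0258 at day 8. Relative to Cebpd it was at 0.257 ± 0.0108, 0.866 ± 0.144 and 6.87 ± 0.472. These are shares of RNA, and how much protein each gene gave was not measured.

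**Figure D3:**
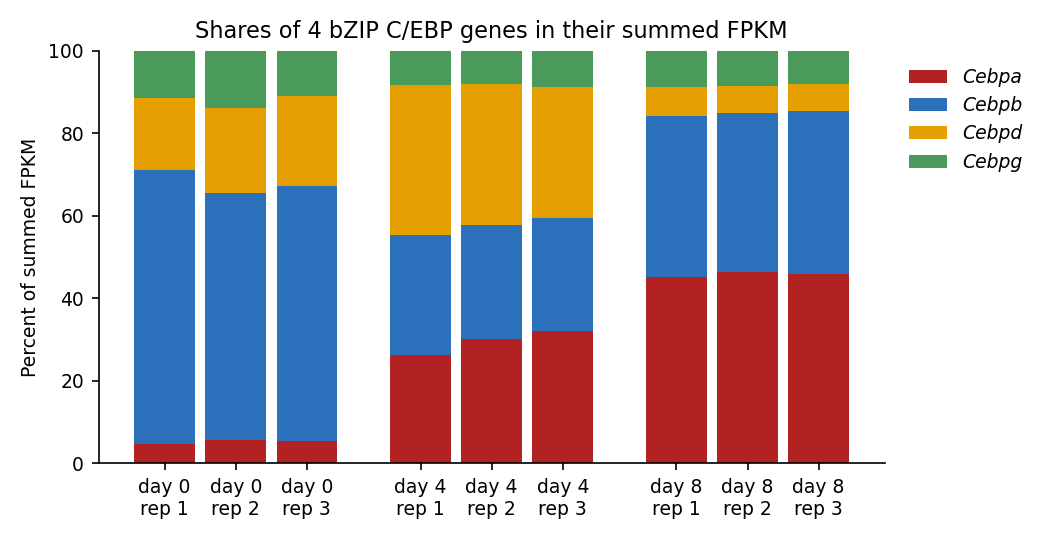
Percent of the summed FPKM of Cebpa, Cebpb, Cebpd and Cebpg (y axis) that each gene contributed in each of the 9 samples (x axis, 3 replicates per day). Bars stack to 100. Cebpb was the largest part in every day 0 sample and Cebpa in every day 8 sample, and Cebpd had its largest part at day 4.

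Of the remaining C/EBP-type bZIP genes, Ddit3 and Cebpe, only Ddit3 was high enough to be tested. Ddit3 encodes CHOP, a stress-induced relative that pairs with C/EBP proteins and keeps them from their usual sites. It was at 123.65, 107.94 and 129.75 FPKM at day 0, at 56.67, 51.15 and 51.62 FPKM at day 4 and at 118.94, 116.59 and 126.63 FPKM at day 8. The day 4 samples were the lowest, and day 0 and day 8 overlapped. Over all tested genes, day 4 was wholly apart from day 0 on log2 CPM for 72.3% and from day 8 for 54.5%. Ddit3 fell by 1.12 early (adjusted p = 5.8e-10) and rose by 1.23 late (adjusted p = 9.4e-10) on the log2 scale, and the value over the whole process was 0.11 (adjusted p = 0.151). Cebpa was at 0.0491 ± 0.0048 of the FPKM of Ddit3 at day 0, 1.65 ± 0.373 at day 4 and 1.02 ± 0.0528 at day 8. For Cebpb the same ratio was 0.603 ± 0.0495, 1.56 ± 0.156 and 0.872 ± 0.0256. Cebpe, the myeloid member, had 3, 1 and 2 counts at day 0, 2, 2 and 1 at day 4 and 0 in each day 8 sample. These are at or below a floor of 3 counts per sample, and no fold was taken.

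Other bZIP factors can pair with C/EBP proteins or, as the PAR group, bind related sites. Of 12 such genes 9 were tested. In the early phase 3 rose and 5 fell, in the late phase 6 rose and 2 fell, and over the whole process 5 rose and 1 fell, with median log2 fold changes of -0.17, 0.63 and 0.19 against 0.02, -0.01 and -0.02 over all tested genes. Among all tested genes 35.5% rose and 33.7% fell early, 22.5% and 22.7% late, and 34.8% and 36.2% over the whole process. Hlf, a PAR factor, rose by 3.92 and then 1.51 on the log2 scale (adjusted p = 9.3e-10 and 2.5e-07), from 0.0733 through 1.08 to 2.98 FPKM. With between 6 and 11 counts of Hlf in a day 0 sample, the size of its early rise rests on few reads. Dbp, a clock-driven PAR factor, was at 23.2, 8.13 and 34.2 FPKM and changed by -1.45 and 2.12 (9.2e-11 and 3.7e-12). Atf3, a stress-induced repressor, changed by -2.63 and 2.24 (2.4e-09 and 1.0e-07). Its change over the whole process, -0.39 (adjusted p = 0.0257), was the 1 fall of the list, and it no longer passed without day 0 replicate 1 (-0.33), day 0 replicate 3 (-0.38), day 8 replicate 1 (-0.36) or day 8 replicate 2 (-0.33). Fos, the immediate early partner of Jun, rose by 1.67 (3.6e-05) and fell by 1.75 (6.2e-05), with 39.2 ± 12.5, 120 ± 60.3 and 34.4 ± 4.31 FPKM. Atf4, the translationally induced stress factor that pairs with C/EBPβ and C/EBPγ, was at 290, 190 and 313 FPKM and changed by -0.56 and 0.77 (1.9e-08 and 1.9e-09). Batf, Batf2 and Batf3 were too low to be tested.

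A list of factors and kinases placed around the C/EBP genes or proteins, most of them known to act upstream, was examined next. Of 13 tested, 4 rose and 6 fell in the early phase, 3 rose and 3 fell in the late phase, and 3 rose and 6 fell over the whole process. Of all tested genes, 35.5% rose and 33.7% fell early, 22.5% and 22.7% did late, and 34.8% and 36.2% did over the whole process. Klf5, on this list although it is known as a gene that C/EBPβ and C/EBPδ induce, was at 2.71 ± 0.586, 13.9 ± 1.39 and 1.0 ± 0.293 FPKM. It rose by 2.43 and then fell by 3.74 on the log2 scale (adjusted p = 2.6e-10 and 5.5e-11), and over the whole process it fell by 1.31 (3.2e-05). Klf4 and Egr2 (Krox20), both known to act on the Cebpb gene soon after induction, fell by 1.36 and 1.07 in the early phase (6.9e-11 and 1.3e-04). Egr2 lay close to 2-fold. The count of this list called lower in the early phase was 2, and 1 without day 0 replicate 3, day 4 replicate 1 or day 4 replicate 2. Over the whole process Klf4 fell by 1.45 and Egr2 by 1.26 (3.3e-11 and 3.0e-05). Nr3c1, the glucocorticoid receptor through which dexamethasone acts, was at 26.4, 16.4 and 28.7 FPKM and changed by -0.62 and 0.85 (2.0e-08 and 1.8e-09). Stat5a, an adipogenic factor, rose by 0.86 in the early phase and by 0.74 over the whole process (2.0e-09 and 1.2e-08).

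Proteins that bind, restrain or degrade C/EBP proteins formed a further list of 11 tested genes. In the early phase 2 rose and 8 fell, in the late phase 6 rose and 3 fell, and over the whole process 3 rose and 7 fell (medians -0.71, 0.34 and -0.49). Early, 35.5% of all tested genes rose and 33.7% fell, with 22.5% and 22.7% late and 34.8% and 36.2% over the whole process. Tsc22d3, the glucocorticoid-induced protein GILZ, was at 30.8 ± 1.48, 278 ± 13.7 and 52.3 ± 1.8 FPKM, rose by 3.26 and fell by 2.35 (7.9e-17 and 1.9e-14), and was still above day 0 by 0.91 at day 8 (2.8e-10). Gata2 and Gata3, which hold preadipocytes back by binding C/EBP proteins, fell by 2.42 and 1.87 in the early phase (1.7e-12 and 8.1e-10). In the late phase Gata2 rose by 1.08 and Gata3 by 0.89 (4.0e-07 and 4.1e-05), and both remained below day 0, by log2 changes of -1.34 and -0.98. Runx1t1, which inhibits C/EBPβ, fell by 1.03 early (3.2e-09), close to 2-fold. Trib3 belongs to the Tribbles family, of which some members target C/EBP proteins for degradation. It was at 59, 19.8 and 70.5 FPKM and changed by -1.51 and 1.88 (9.7e-13 and 4.3e-13). Trib1 fell by 0.71 and 0.29 (3.6e-07 and 0.00817), and Trib2 fell by 0.51 early (6.3e-05).

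**Figure D4:**
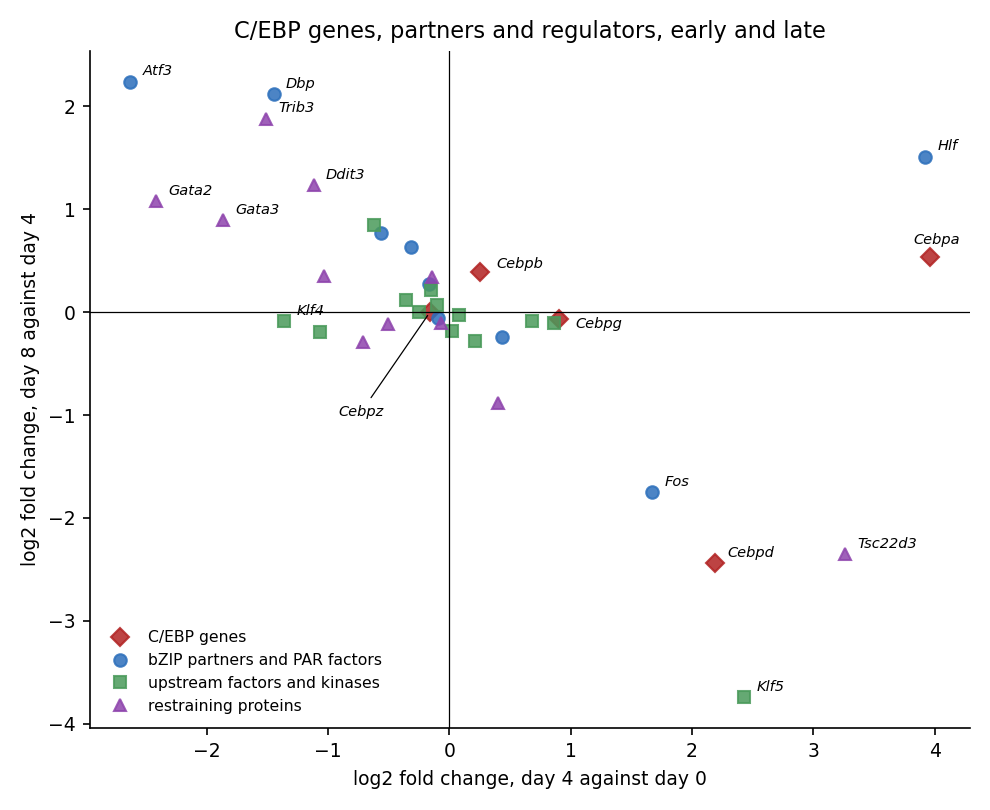
Log2 fold change of the early phase (x axis) against that of the late phase (y axis) for the C/EBP genes (diamonds), bZIP partners (circles), upstream factors (squares) and restraining proteins (triangles) that were tested. Both axes share the day 4 samples, so only each gene's own values should be read from it. Cebpd, Klf5, Tsc22d3 and Fos lie at the lower right (higher, then lower), Atf3, Dbp, Trib3, Gata2, Gata3 and Ddit3 at the upper left, and Cebpa and Hlf at the upper right.

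Fat cell genes known as C/EBP targets rose almost throughout. Of 13 tested, 13 rose in the early phase, 12 of them more than 2-fold. In the late phase 11 rose (6 more than 2-fold) and 1 fell, and over the whole process 13 rose, 12 more than 2-fold. The median log2 fold changes were 6.38, 0.86 and 8.41, and 4.28 early and 7.06 over the whole process with Lep and Adrb3, which had no count at day 0, set at the lowest change that a floor of 3 counts allows. Among all tested genes 35.5% rose early, 22.5% late and 34.8% over the whole process, and 22.7% fell late. More than 2-fold higher were 9.77%, 4.24% and 10.3% of all tested genes. Pparg, the receptor that works with C/EBPα, was at 11.5 ± 0.161, 93.2 ± 6.41 and 130 ± 9.13 FPKM. It rose by 3.00 and 0.52 (adjusted p = 4.0e-15 and 2.7e-06), beside 3.96 and 0.54 for Cebpa. Adipoq (adiponectin) went from 0.503 through 467 to 820 FPKM, Retn (resistin) from 0.207 through 310 to 392, and Fabp4 from 9.52 through 4052 to 4828. Retn had 2 or 3 counts in each day 0 sample, at the floor, so its fitted fold, the largest early one of the list, is not given. Among genes with more counts at day 0 the largest early rise was that of Adipoq (9.91, adjusted p = 1.1e-15). Adipoq had between 7 and 15 counts in a day 0 sample, so the size of this rise rests on few reads. Those more than 2-fold higher late were Pck1 (4.53), Lep (2.53), Adrb3 (2.44), Scd1 (1.65), Slc2a4 (1.26) and Cfd (1.26), the first an enzyme of glyceroneogenesis and Slc2a4 the insulin-regulated glucose transporter. Lpl, the lipase that frees fatty acids at the vessel wall, rose by 3.50 early and 0.51 late. Agpat2, an enzyme of triglyceride synthesis, rose by 3.58 and then fell by 0.59 (6.2e-06). Insr, the insulin receptor, stayed within 2-fold (0.30 early).

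Acute phase and inflammatory genes that C/EBP proteins are known to bind split in direction. Of 13 genes 11 were tested, and 6 rose and 5 fell in the early phase, 3 rose and 6 fell in the late phase, and 6 rose and 5 fell over the whole process. For comparison, 35.5% of all tested genes rose and 33.7% fell early, 22.5% and 22.7% late, and 34.8% and 36.2% over the whole process. The genes of this list that rose early were Hp (haptoglobin, 9.17), Lcn2 (6.27), C3 (3.88 on the log2 scale), Orm1, Orm2 and Saa3. Orm1, Orm2 and Saa3 each had under 3 counts, the floor, in at least 1 day 0 sample, so their fitted early folds are not given. From day 0 to day 4 their mean levels went from 0.397 to 56.4 FPKM for Orm1, from 0.22 to 16.4 for Orm2 and from 0.2 to 3.03 for Saa3. Hp had between 7 and 11 counts in a day 0 sample, so the size of its early rise rests on few reads. Hp was at 0.323, 182 and 55.8 FPKM, C3 at 43.6, 616 and 299, and Lcn2 at 1.39, 104 and 58. All 6 fell in the late phase, by 2.13 for Orm2, 1.76 for Saa3, 1.66 for Hp, 1.00 for C3, 0.80 for Lcn2 and 0.45 for Orm1. Those more than 2-fold lower early encode the prostaglandin enzyme Ptgs2 (-5.09) and the chemokines Cxcl5 (-4.96), Cxcl1 (-3.70) and Ccl2 (-3.31). The fifth gene that fell, Ptx3, encodes an acute phase protein too, and it fell by 0.99 early and rose by 0.70 late (adjusted p = 1.7e-10 and 5.9e-08). Cxcl5 and Cxcl1 rose again late by 2.02 and 1.64, and each of the 4 was lower at day 8 than at day 0, by log2 changes of -4.79, -2.94, -2.06 and -2.95. Il6 and Csf3 were too low to be tested.

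Amino acid response genes are bound by ATF4 together with C/EBP partners, C/EBPγ among them. Of 12 tested, 1 rose and 11 fell in the early phase, 9 rose and 0 fell in the late phase, and 4 rose and 7 fell over the whole process (medians -0.85, 0.50 and -0.18). Among all tested genes 35.5% rose and 33.7% fell early, 22.5% and 22.7% late, and 34.8% and 36.2% over the whole process. Ddit3, Trib3 and Atf5 belong to this list and to others above. Besides Trib3 and Ddit3, those more than 2-fold lower early were Slc7a11 (the cystine transporter, -2.19), Chac1 (-1.45), Sesn2 (-1.11) and Shmt2 (-1.01), the last close to 2-fold. Chac1, which breaks down glutathione, rose again by 1.75 (adjusted p = 3.1e-12), and Slc7a11 ended below day 0 by a log2 change of -1.65. Psat1, an enzyme of serine synthesis, was the 1 that rose early (0.18, adjusted p = 0.0129). This rise no longer passed when counts were scaled by upper quartiles (0.13) or library size alone (0.11), and without day 0 replicate 1 (0.15), day 0 replicate 3 (0.14) or day 4 replicate 2 (0.15). Cebpg rose by 0.90 over the same interval in which 11 of these genes fell.

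Cebpz was set beside 28 nucleolar genes of ribosome assembly. In the early phase 6 rose and 13 fell, in the late phase 0 rose and 18 fell, and over the whole process 2 rose and 22 fell, with medians of -0.15, -0.20 and -0.40. For comparison, 35.5% of all tested genes rose and 33.7% fell early, 22.5% and 22.7% late, and 34.8% and 36.2% over the whole process. The log2 fold changes of Cebpz itself were -0.16, 0.00 and -0.17. Utp20, of the small subunit processome, fell furthest early and over the whole process, by 1.17 and 1.75 (8.8e-10 and 1.1e-11), and went from 9.21 through 3.9 to 2.54 FPKM. Ftsj3, an rRNA methyltransferase, rose by 0.63 and fell by 0.80 (7.6e-08 and 1.8e-08), and Nhp2 had the larger of the 2 rises over the whole process (0.33, adjusted p = 0.00428). The CCAAT box itself is bound by NF-Y, whose subunit gene Nfya fell by 0.37 early (6.8e-05), whose subunit gene Nfyc rose by 0.23 late (0.00568); Nfyb did not pass the test in any comparison. C/EBPβ is also known for accompanying a round of cell division in this line. Of 14 replication and mitosis genes 0 rose and 12 fell early, 7 rose and 0 fell late, and 2 rose and 11 fell over the whole process. Again, 35.5% of all tested genes rose and 33.7% fell early, 22.5% and 22.7% late, and 34.8% and 36.2% over the whole process. Mki67 fell by 1.32 and Top2a by 1.09 early (3.7e-08 and 1.3e-08), Mcm2 rose by 0.41 late (3.1e-04), and Ccne1 had the larger rise over the whole process (0.32, adjusted p = 0.00372).

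Cebpa and Cebpg neighbour each other on chromosome 7, and genes beside the members were read as a positional context. On the far side of Cebpg, Chst8 rose by 1.27 and 1.39 (adjusted p = 9.0e-05 and 4.8e-06) from 0.44 through 0.993 to 2.53 FPKM, whereas Pepd had an early log2 fold change of 0.00 (95% interval -0.14 to 0.14, adjusted p = 0.998). On the far side of Cebpa, Lrp3 had at most 2 counts in any sample and Slc7a10 had no value under its gene ID in any sample. Gm45095, which lies between the members and overlaps Cebpg, had no value under its gene ID either. Beside Cebpb, Ptpn1 rose by 0.18 early (0.00437), Ripor3 (listed as Fam65c) rose by 1.04 late (0.0177) and Ube2v1 did not pass early (0.10, 95% interval 0.01 to 0.20 before adjustment, adjusted p = 0.0556). Beside Cebpd, Prkdc fell by 0.41 and 0.20 (3.2e-05 and 0.0233), Mzt2 rose by 0.20 (0.0232) and Pkp2 fell by 0.59 (0.00772) early. Beside Cebpz, Ndufaf7 rose by 0.69 early and fell by 0.18 late (2.6e-07 and 0.0438), Sult6b1 fell by 0.92 early (0.0447), and Prkd3 rose by 0.14 late (0.0342). Chst8 had the largest early log2 fold change of the tested neighbours outside the family, against 3.96 for Cebpa and 2.19 for Cebpd.

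Genes with the most similar course were found by Pearson's r of log2 CPM over the 9 samples among 11467 genes with an average of at least 1 on that scale. The 9 points fall into 3 days, so that r mostly reflects the day means. Nearest to Cebpa were Sh2b2 (r = 0.9998), Lipe (0.9995), Dgat1 (0.9995), Uqcrc2 (0.9994) and Cfd (0.9993), and 2108 genes had r above 0.9. Lipe, the hormone-sensitive lipase, was at 5.83, 152 and 249 FPKM on the 3 days, and Sh2b2, an adaptor of the insulin receptor, at 2.85, 31.8 and 41.8. Among those nearest to Cebpd were Ctla2a (0.9974), Map3k6 (0.9954), Jade2 (0.9943) and Micall1 (0.9932), with 329 genes above 0.9. Ctla2a was at 7.98, 46.7 and 5.9 FPKM and the kinase gene Map3k6 at 4.22, 24.3 and 3.89, both highest at day 4 as Cebpd was. Nearest to Cebpb were Tle3 (0.9911), a corepressor, Dym (0.9841), Mtss1l (0.9837), Sema4g (0.9817) and Rcor2 (0.9810), with 557 above 0.9. Tle3 was at 19.6, 20.8 and 22.8 FPKM. Nearest to Cebpg were Mtch2 (0.9979), Dld (0.9944), Mmgt1 (0.9937), Tmed2 (0.9937) and Tmem170b (0.9937), with 1888 above 0.9. Dld, a subunit shared by mitochondrial dehydrogenases, was at 31.3, 65.5 and 60.8 FPKM. Nearest to Cebpz were Lhx2 (0.9543), Pfdn1 (0.9428), Hmgb1 (0.9398), Anp32b (0.9333) and Asnsd1 (0.9330), with 17 above 0.9. On log2(FPKM + 1) Lhx2 and Asnsd1 were no longer among the 5 nearest to Cebpz, nor Uqcrc2 to Cebpa or Tmed2 to Cebpg. Among the members themselves, r was 0.97 between Cebpa and Cebpg, 0.82 between Cebpa and Cebpb, 0.31 between Cebpa and Cebpd and -0.20 between Cebpb and Cebpd.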

How the data were processed

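RNA-seq data of 9 samples of 3T3-L1 cells (day 0, 4 and 8, n = 3 each, grouped by their titles) were used. Per the study's methods, the authors cleaned the reads, mapped them with HISAT/Bowtie2 and quantified genes with RSEM, and the submitters' processing notes name CASAVA 1.4 and Bowtie2. The genome build is not given in the sources used here. The files deposited by the authors give expected counts (29.8% of them not whole) and FPKM, each per gene and sample. Depth was 18216114 to 20452144 expected counts per sample, and a floor of 3 counts per sample, which covers counting error only, was used for genes with no count.

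From the deposited expected counts, rounded to whole numbers, 13154 genes passed edgeR's filterByExpr. TMM factors (0.954 to 1.05) and 1 coefficient per day were fitted to all 9 samples with the quasi-likelihood test (edgeR 4.0.16, R 4.3.3), and p-values were adjusted by Benjamini-Hochberg over all tested genes of a comparison. The common biological coefficient of variation was 0.0538. Changed means adjusted p under 0.05, and called means also more than 2-fold. Levels between genes were compared in FPKM as deposited by the authors, with shares in CPM as an alternative. Symbols that a spreadsheet had turned into dates (26) were restored by gene ID. Alternatives were other scaling factors, DESeq2 1.42.0, edgeR's exact test, limma 3.58.1 on log2 FPKM, other filters and thresholds, a replicate block and leaving out each sample. The procedure was tested on simulated data.

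The members and lists were chosen with earlier results of these data known. The text names the 5 members, per list the genes called and the largest changes that passed, the 5 genes most similar to each member, and the 2 nearest protein-coding genes on either side. A gene that this rule would name is not reported here. Shared 50-base stretches were counted in GENCODE transcripts, and motifs in RefSeq promoters.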

Additional observations from a re-analysis of the deposited data

How the results depend on the processing

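Of 315 alternative values for the members' fold changes, 291 kept their direction and their side of the threshold, 17 no longer passed and 7 turned in direction. The calls of Cebpa and Cebpd past 2-fold held in all of them. At an adjusted p under 0.001, Cebpb early (0.25), Cebpz early (-0.16), Cebpd over the whole process (-0.25) and Cebpz over the whole process (-0.17) no longer passed. Cebpz also missed the threshold early in a model of those days alone (-0.17, adjusted p = 0.0504) and over the whole process in DESeq2 (-0.15, adjusted p = 0.0641). Its late value, near 0, turned to 0.01 with RLE factors and with DESeq2. Leaving out single replicates gave -0.23 to -0.11 for Cebpz early, -0.22 to -0.12 over the whole process, -0.04 to 0.07 late and 0.10 to 0.30 for late minus early, and -0.14 to 0.02 for Cebpg late. Under limma on log2(FPKM + 1) the genes called fell in number to 708 higher and 565 lower early, 224 and 136 late, and 753 and 528 over the whole process. With at least 10 counts in every sample, which tests fewer genes, they were 831 higher early and 310 higher and 173 lower late, and at an adjusted p under 0.001 there were 221 lower late. Shares of the bZIP members in CPM, which is not per length, were 6.43%, 32.8% and 51.5% for Cebpa, 45%, 17.8% and 25% for Cebpb and 27.2%, 16.7% and 17.1% for Cebpg on the 3 days. With Ddit3 added they were 2.51%, 24.9% and 31.6% for Cebpa, 30.8%, 23.7% and 27% for Cebpb, 9.77%, 28.9% and 4.61% for Cebpd and 5.9%, 7.07% and 5.84% for Cebpg. Where not given, the cause was not tested. Library size alone shifted the median of all genes by -0.11 over the whole process. Of 2748 alternative values for 133 named list results, 34 no longer passed and 0 turned, and 110 of 2016 list counts moved by more than 1.5 times. Of the counts given, the adipocyte genes more than 2-fold higher went from 12, 6 and 12 to 5, 1 and 5 with at least 10 counts in every sample, a filter that leaves out genes near 0 at day 0. Deviations of same-numbered samples correlated at 0.0308 on average and those of differently numbered samples at -0.0154. Of the 9 same-numbered pairs 0 exceeded 0.1, which does not settle whether the replicate numbers pair the samples. With the replicate block Cebpa rose by 3.95 early, 1287 genes were called higher and 1053 lower early, 556 and 367 late, and 1360 and 1010 over the whole process, and no member's call changed.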
